A study of Mus musculus with 8 samples.

Results

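Complex I, the NADH dehydrogenase of the mitochondrial inner membrane, was examined here through the genes that encode its nuclear parts. These genes were taken as the entries of the deposited expression table whose symbol starts with Nduf, which gave 45 of 24421 entries. RNA sequencing had been done on 8 libraries of RAW macrophages, a mouse line made with the Abelson leukaemia virus, in 4 groups with 2 libraries each. Statin LPS cells received a statin and lipopolysaccharide (LPS, a bacterial surface component that activates Toll-like receptor 4), ctl LPS cells LPS alone, statin cells the statin alone, and Ctrl cells neither. Per the labels, the statin was used at 7 µM with serum depleted of lipoproteins. LPS was given at 100 ng/ml for 3 h in medium with albumin. The study names lovastatin, a drug that blocks cholesterol synthesis, given along with mevalonate. The serum of cells that got no statin is not stated, so an effect of statin here is that of drug, serum and mevalonate together, and comparisons of LPS with rest may hold a change of medium. All 4 groups are of 1 cell line. Nothing in the labels says that the libraries of a group came from separate cultures, so p-values measure only the spread between these libraries.

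Complex I takes electrons from NADH and passes them along a chain of iron-sulfur clusters to ubiquinone, and couples this to the pumping of protons across the inner membrane. It is L-shaped, with a matrix arm that holds the NADH-oxidizing N module and the quinone-reducing Q module, and a membrane arm that pumps protons. In macrophages it is also known as a source of reactive oxygen species, and its activity falls when LPS moves the cells towards glycolysis. The study asked how a lower cholesterol content changes macrophages and their response to LPS, with mitochondrial respiration as a part of that question.

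By role, the 45 members were 3 core subunits of the N module, 4 core subunits of the Q module, 9 accessory subunits of the matrix arm, 9 of the proximal and 10 of the distal membrane arm, and Ndufab1, the acyl carrier protein that sits in both arms. A further 7 were assembly factors (Ndufaf1 to Ndufaf7), which help build the complex and leave it. The last 2, Ndufa4 and Ndufa4l2, carry the name but are not complex I subunits: Ndufa4 is now placed in cytochrome c oxidase (complex IV). The core subunits of the membrane arm are encoded in mitochondrial DNA and were not analysed here. The mean normalized count over the 8 libraries reached 10, the minimum for a test, in 43 members. A normalized count is a read count divided by a size factor of its library. Ndufs5, an accessory subunit, had 0 reads in every library, and a count of 0 allows up to 3 reads. A processed pseudogene, BC002163, is 99.4% identical to it over 319 bases of its longest transcript (680 bases) and had between 25.5 and 56.3 normalized counts. Ndufa4l2 had 1.74 and 7.97 normalized counts in the statin LPS libraries, 10.1 and 6.26 in the ctl LPS libraries, 1.79 and 4.70 in the statin libraries and 3.904 and 3.92 in the Ctrl libraries, and was not tested.

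A pair of libraries stood apart from their groups. The first ctl LPS library held 1634 normalized counts over 3 complement C1q genes and 768 over collagen genes, against 1.25 each in the other ctl LPS library. Those sums were 273 to 365 and 301 to 380 in the statin LPS libraries and at most 5.88 and 1.56 at rest. The second statin library had 1.72% of its reads in Rn45s, a ribosomal RNA precursor, against at most 0.153% in the others. Counts are therefore given also without both of these libraries. That run leaves 1 library each in the ctl LPS and statin groups. The share of all genes called in it was not counted, so a smaller count there is no result about the members or lists. Counts with 1 library left out have no such share either. The statin LPS libraries, which hold C1q and collagen counts too, were kept. In that run statin LPS and ctl LPS therefore differ in this signal as well, which cannot be told apart from statin under LPS. Beyond these counts, the part of these differences in the results was not tested. The 5 fibroblast markers include these collagens, and summed to 803 in the first ctl LPS library and to 314 and 402 in the statin LPS libraries. Dcn and Pdgfra, the rest of that list, had 23.5 and 11.8 in the first ctl LPS library. Of the lymphocyte markers Lck reached 1538 and 1641 in the ctl LPS libraries, and Cd3e, Cd3d and Cd79a were each at most 3.98 in every library. Markers of macrophages summed to between 546713 and 810481 normalized counts, and markers of striated muscle, a tissue rich in complex I, to at most 15.1. Libraries held 37.0 to 76.4 M reads (M, mega) over genes. In 19 members another annotated gene overlapped the exons, and no source says whether reads were counted by strand. The overlap covers at least 10% of the exonic bases in 7, Ndufaf2 (65.6%) and Ndufb6 (39.0%) most. Ndufs3 and Ndufb11 have near-identical copies elsewhere in the genome (Gm12251 and Gm6444), so their counts are uncertain.

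The deposited scale decides much of what follows. Normalized counts summed to 50.7 and 50.3 M in the statin LPS libraries, 64.2 and 64.0 M in the ctl LPS libraries, 39.3 and 39.4 M in the statin libraries and 36.3 and 36.3 M in the Ctrl libraries. Every comparison was therefore repeated after all libraries had been brought to the same total. That moved the median of all 11647 genes tested by -0.11 on the log2 scale for statin against Ctrl, 0.34 for statin LPS against ctl LPS, -0.82 for ctl LPS against Ctrl, -0.36 for statin LPS against statin and 0.46 for the interaction. With equal totals, a value is given relative to that of the median gene where this is said. As a share of all reads, the 45 members took 0.158 and 0.158% in the statin LPS libraries, 0.143 and 0.142% in the ctl LPS libraries, 0.204 and 0.213% in the statin libraries and 0.291 and 0.275% in the Ctrl libraries. The Ctrl libraries thus had the highest share and the ctl LPS libraries the lowest, with no overlap between groups. As sums of normalized counts the groups lay closer and in another order. The sums were 80003 and 79484 in statin LPS and 91717 and 91113 in ctl LPS. They were 80123 and 84105 in statin and 105660 and 99815 in Ctrl. Ctrl was highest there too, but ctl LPS lay above statin and statin LPS, so its lowest place holds for the share only. In bulk RNA, fewer cells of a kind and less RNA per cell cannot be told apart.

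**Figure D1:**
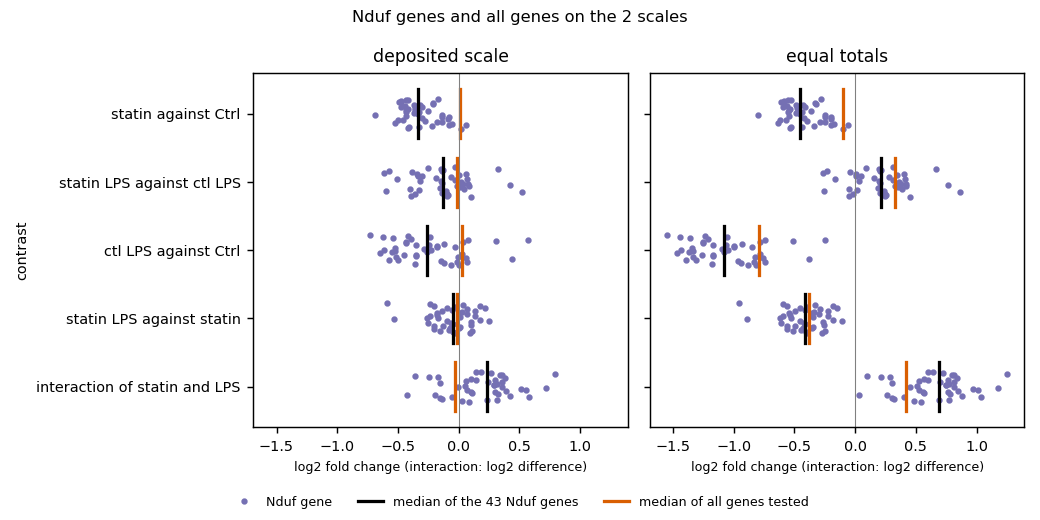
Each point is 1 of 43 Nduf genes, plotted by its log2 fold change (x axis) for each contrast (y axis), on the deposited scale (left) and with equal library totals (right). Black lines are medians of these genes and orange lines medians of all 11647 genes tested. On both scales the black line lies left of the orange one for the 4 comparisons and right of it for the interaction.

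Per kb of exon, the members covered a wide range of levels. In normalized counts per kb, Ndufa2, a small subunit of the N module, had the highest level in every group: 4733 in statin LPS, 5066 in ctl LPS, 5010.4 in statin and 4817 in Ctrl. Ndufa1, a small membrane subunit, had 3542 in statin LPS, 3291 in ctl LPS, 3326 in statin and 3288 in Ctrl. Among the members tested, Ndufaf2, an assembly factor, was lowest, with 89.8 in statin LPS, 84.8 in ctl LPS, 93.6 in statin and 116 in Ctrl per kb.

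RefSeq promoter windows (GRCm38.p6, 250 bases before to 50 bases after the start of the gene) were matched for 39 members and searched on both strands for motifs of factors known for respiratory genes. The letters GCGCATGCG, a core of the site of NRF1, the main activator of nuclear respiratory genes, were in 4 of the 39 (10.3%), against 1.95% of 27025 genes. The stretches are shown because all 4 genes had an interaction of statin and LPS above 0, as had 33 of the 43 members tested. They were thus chosen by the values of their genes, and a link with the motif was not tested. Capitals mark the motif, which in Ndufaf5, Ndufaf4 and Ndufa11 reads on both strands, and each stretch runs along the gene's strand.
Ndufaf4, chr4:24897960-24897989, plus strand: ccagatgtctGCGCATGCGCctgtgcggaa
Ndufaf5, chr2:140170652-140170681, plus strand: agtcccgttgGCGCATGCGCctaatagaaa
Ndufa8, chr2:36049329-36049357, minus strand: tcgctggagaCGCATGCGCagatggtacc
Ndufa11, chr17:56717692-56717721, plus strand: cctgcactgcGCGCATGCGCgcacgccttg
The motif begins 113 bases before the annotated start in Ndufaf4, 60 before it in Ndufa11 and 9 before it in Ndufa8, and at base 17 of the gene in Ndufaf5. The letters AAGATGGC, a core of the site of YY1, a factor that binds close to transcription starts, were in 7 of 39 members (17.9%), against 3.19% of all genes. In all 7 the ATG inside the motif is the annotated start codon, so the match is also the beginning of the coding sequence. These 7 are Ndufa3, Ndufa9, Ndufb8, Ndufc1, Ndufs4, Ndufs6 and Ndufs7, of which 4 are shown for the shared letters around the start codon.
Ndufs4, chr13:114388045-114388069, minus strand: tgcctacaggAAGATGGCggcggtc
Ndufs6, chr13:73328433-73328459, minus strand: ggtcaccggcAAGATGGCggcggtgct
Ndufs7, chr10:80249463-80249490, plus strand: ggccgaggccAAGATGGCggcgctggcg
Ndufa9, chr6:126849098-126849125, minus strand: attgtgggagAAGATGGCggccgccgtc
Of the other motifs searched, CCGGAAG (bound by ETS factors) was in 12.8% of members and 9.93% of all genes, TGACGTCA (cyclic AMP response element) in 7.69% and 2.03%, CACGTG (E-box) in 5.13% and 8.09%, CCAAT in 33.3% and 41.1%, and GGGCGG (GC box) in 51.3% and 38.2%. Matches to different motifs can overlap in a promoter. A match is a description of the sequence and no binding was measured.

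In resting cells, complex I transcripts were broadly lower with statin treatment. Of the 43 members tested, 0 were higher and 30 were lower in the statin than in the Ctrl libraries (limma, Benjamini-Hochberg adjusted p under 0.05). Over all genes tested the shares were 30.4% higher and 25.7% lower. An unadjusted p under 0.05 gave 0 higher as well, as did edgeR and DESeq2, which called 31 and 29 members lower. The median log2 fold change of the members was -0.34, against 0.01 for all genes, and 41 of 43 members lay below 0. With equal totals 0 members were higher and 37 lower, with all-gene shares of 23.5% and 34.6% and 0 higher also by unadjusted p, and the members' median was -0.35 relative to the median gene. Without both libraries that stand apart, 0 were higher and 27 lower.

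The core of the N module fell as a whole. Ndufv1, which binds NADH and the flavin that takes its electrons, had 3119.7 and 3269 normalized counts in the statin libraries, against 4584 and 3946 in the Ctrl libraries. Ndufv2, an iron-sulfur protein beside it, had 2871 and 3087 in statin against 4285 and 3782 in Ctrl. Ndufs1, the largest subunit and holder of several clusters, had 4714 and 4569.9 in statin against 5989 and 5588 in Ctrl. In all 3 genes both statin libraries lay below both Ctrl libraries, and the log2 fold changes were -0.41 (SE 0.076, adjusted p = 0.00212) for Ndufv1, -0.44 (SE 0.074, adjusted p = 0.00144) for Ndufv2 and -0.32 (SE 0.058, adjusted p = 0.00206) for Ndufs1 (limma). In the Q module 3 of 4 core subunits fell. Ndufs7, which carries the last cluster before ubiquinone, had 1820.4 and 2024 in the statin libraries against 2775 and 2551 in the Ctrl libraries, with log2 fold change -0.47 (SE 0.081, adjusted p = 0.00149). Ndufs8, holder of the clusters that lead to it, had 3378 and 3373 in statin against 5106 and 4299.7 in Ctrl, with log2 fold change -0.47 (SE 0.080, adjusted p = 0.00140). The groups did not overlap in these genes either. The share of all genes without overlap between groups was not counted, so overlap, here and below, only describes the named genes. Ndufs3, a scaffold of the Q module, had 1778 and 1889 in statin against 2268 and 1975 in Ctrl and did not pass the test, with -0.21 (SE 0.079, adjusted p = 0.0535).

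**Figure D2:**
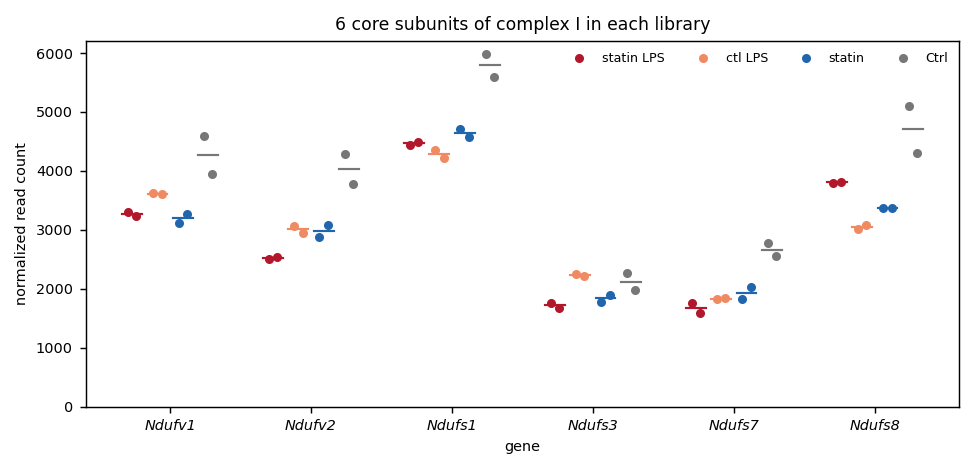
Normalized read counts (y axis, from 0) of 6 nuclear core subunits (x axis) in each library. Points are libraries and lines are means of 2 libraries. Ctrl libraries lie above statin libraries in all 6 genes, and Ndufs8 is lowest in ctl LPS, at 3006 and 3089.

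Among accessory subunits, 9 of 10 tested in the distal membrane arm, 6 of 8 in the proximal membrane arm and 5 of 9 in the matrix arm fell with statin, with medians of -0.37, -0.29 and -0.21 on the log2 scale. Ndufab1 fell by 0.46. The lowest fold changes among all members were those of Ndufaf6, Ndufa5 and Ndufa9. Ndufaf6, an early assembly factor, had 285 and 276 normalized counts in the statin libraries against 498 and 411 in the Ctrl libraries, with log2 fold change -0.69 (SE 0.13, adjusted p = 0.00219). Ndufa5, a small subunit at the Q module, had 591 and 544 in statin against 863 and 770.4 in Ctrl, with -0.52 (SE 0.095, adjusted p = 0.00202). Ndufa9, a dinucleotide-binding subunit at the joint of the arms, had 3229 and 3340.5 in statin against 4925 and 4401 in Ctrl, with -0.50 (SE 0.067, adjusted p = 4.15e-04). In each of these genes the groups were apart. The members with values above 0 were Ndufa2 (0.06, adjusted p = 0.394) and Ndufa1 (0.02, adjusted p = 0.844), and neither passed the limma test. Of the assembly factors, Ndufaf5 and Ndufaf6 fell. Ndufaf2 passed narrowly, at -0.31 (adjusted p = 0.0424, limma), and lost its call without both libraries that stand apart (adjusted p = 0.205), when any 1 of the 8 libraries was left out, with DESeq2, with no filter, in the blocked fit and in the fit of only the 4 libraries compared. The values of the other 4 were -0.09 for Ndufaf1, -0.08 for Ndufaf3, -0.13 for Ndufaf4 and -0.13 for Ndufaf7. Ndufa4 had 4366 and 4242 in statin against 4679.6 and 4280.1 in Ctrl, values that overlapped, with -0.06 (SE 0.061, adjusted p = 0.461).

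LPS split the members on the deposited scale. Of 43, 3 were higher and 25 lower in the ctl LPS than in the Ctrl libraries by limma, against 39.9% higher and 37.6% lower of all genes. The members' median log2 fold change was -0.26, against 0.02 for all genes. With equal totals, 0 were higher and 43 lower, with 0 higher by unadjusted p, beside 18.2% and 68.6% of all genes. The members' median then was -1.08, or -0.29 relative to the median gene. Without both libraries that stand apart, 2 were higher and 19 lower.

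Among those higher on the deposited scale were Ndufs4 and Ndufa6, accessory subunits of the matrix arm. Ndufs4, which holds the N module to the rest and whose loss in mice gives a Leigh-like disease, had 3021 and 2968 normalized counts in the ctl LPS libraries against 2083 and 1944 in the Ctrl libraries, with log2 fold change 0.57 (SE 0.064, adjusted p = 4.73e-05). Ndufa6, which anchors the acyl carrier protein in the matrix arm, had 3222 and 3160.0 in ctl LPS against 2081 and 2663 in Ctrl, with 0.44 (SE 0.11, adjusted p = 0.00656). Groups were apart in both, although the Ctrl libraries of Ndufa6 differed from each other, and its adjusted p was 0.0546 without both libraries that stand apart. With equal totals the directions turn, to -0.25 for Ndufs4 and -0.38 for Ndufa6. Relative to the median gene they then stood at 0.55 and 0.41.

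Shares within the members' own reads need no scaling between libraries. Ndufs4 took 3.29 and 3.26% of the reads of all 45 members in the ctl LPS libraries, against 1.97 and 1.95% in the Ctrl libraries. Ndufa6 took 3.51 and 3.47% in ctl LPS against 1.97 and 2.67% in Ctrl. Both genes thus took a larger part of these reads after LPS, with no overlap between the pairs. They were picked for high fold changes with LPS, so their shares are no separate support. Ndufs4 and Ndufa6 are overlapped by no annotated gene. In GENCODE M21 (mm10) Ndufs4 lies at chr13:114287795-114388258 with 7 exonic blocks, and Ndufa6 at chr15:82350140-82354322 with 4.

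Lowest with LPS were Ndufv3, Ndufaf4 and Ndufs8. Ndufv3, a small accessory protein of the N module, had 779 and 799 normalized counts in the ctl LPS libraries against 1274 and 1349.6 in the Ctrl libraries, with log2 fold change -0.73 (SE 0.086, adjusted p = 6.16e-05). Ndufaf4, a partner of Ndufaf3 in building the Q module, had 1169 and 1044 in ctl LPS against 1799 and 1668 in Ctrl, with -0.65 (SE 0.076, adjusted p = 6.47e-05). Ndufs8 had 3006 and 3089 in ctl LPS against 5106 and 4299.7 in Ctrl, with -0.62 (SE 0.080, adjusted p = 1.15e-04). In these genes every ctl LPS library lay below every Ctrl library, and the calls held in every alternative run, equal totals included. They were picked for low fold changes among those past the threshold, so this separation is no separate support. The core N module fell in all 3 genes: the log2 fold changes were -0.43 for Ndufs1, -0.42 for Ndufv2 and -0.24 for Ndufv1, of which Ndufv1 lost its call without both libraries that stand apart (adjusted p = 0.0985, limma), without the first Ctrl or either ctl LPS library, and in a fit of only the 4 libraries compared. Ndufs7 fell too, by 0.54, while Ndufs3 stood at 0.08 (SE 0.079, adjusted p = 0.392). Of 7 assembly factors 6 fell and the other, Ndufaf3, stood at 0.03 (adjusted p = 0.749). The accessory subunits fell in 6 of 10 genes tested in the distal membrane arm (3 without both libraries that stand apart), 3 of 8 in the proximal membrane arm and 3 of 9 in the matrix arm. In the matrix arm 2 accessory subunits were higher. Over all genes 37.6% were lower, so the proximal membrane arm and the matrix arm stood near that share. Ndufa4 had 3041 and 2972 in ctl LPS against 4679.6 and 4280.1 in Ctrl, with -0.57 (SE 0.061, adjusted p = 3.44e-05, limma) and no overlap.

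**Figure D3:**
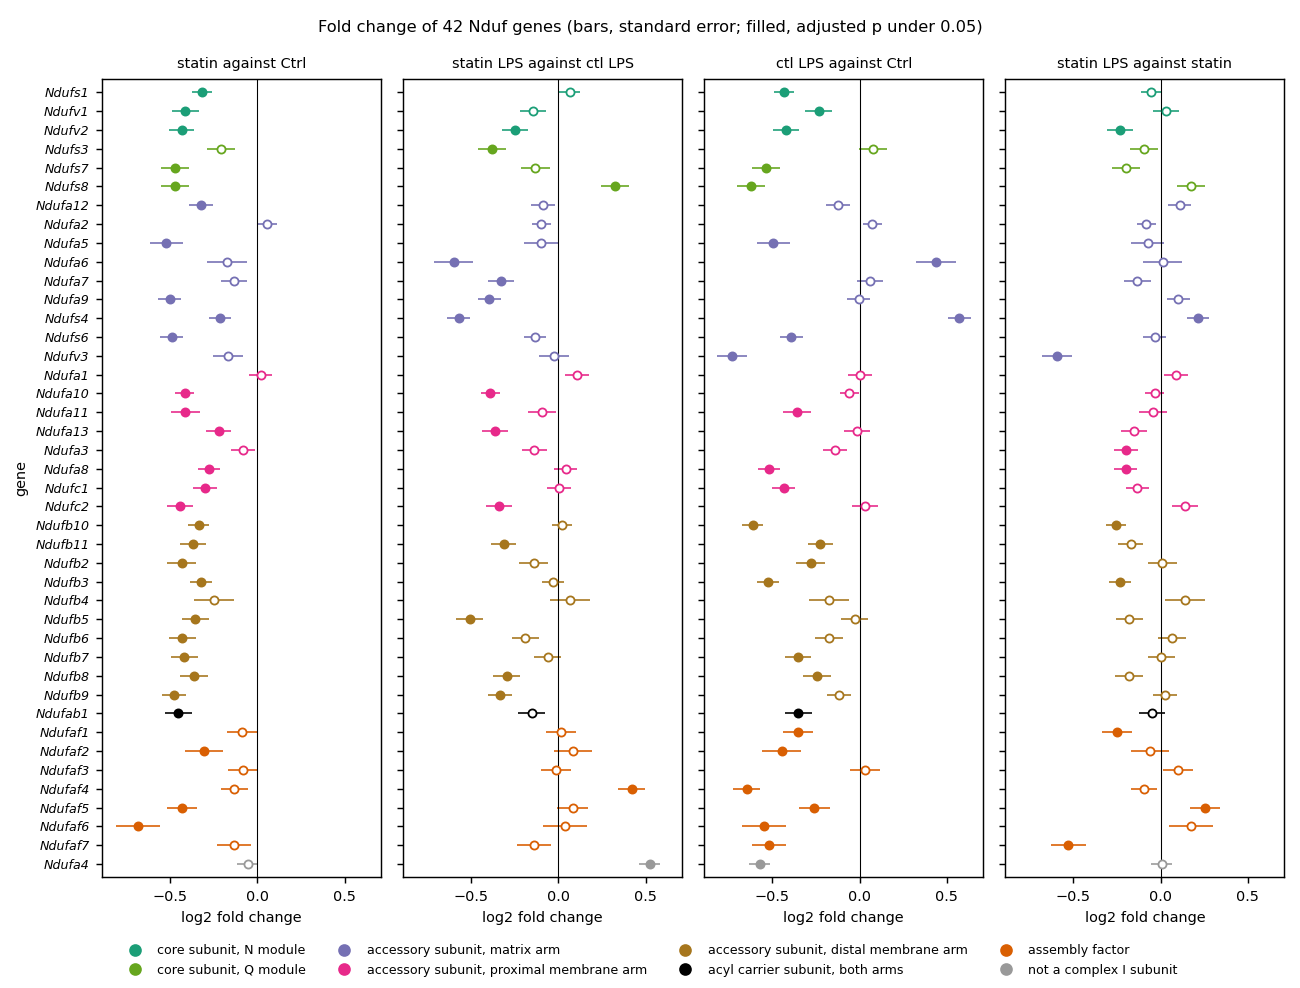
Log2 fold changes (x axis) of 42 Nduf genes (y axis, by role) on the deposited scale for the 4 comparisons between groups. Bars are standard errors and filled points have an adjusted p under 0.05. With statin at rest all filled points lie left of 0, and with LPS Ndufs4 and Ndufa6 lie right of it.

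In cells with LPS, some members were lower and a few higher with statin treatment, on the deposited scale. Of 43, 3 were higher and 14 lower in the statin LPS than in the ctl LPS libraries by limma, against 31.4% higher and 32.9% lower of all genes, so the share that fell was near that of all genes. The members' median was -0.13, against -0.01 for all genes. Equal totals turned this to 25 higher and 2 lower, beside 52.9% and 17.7% of all genes, with a median of 0.21, which is -0.12 relative to the median gene. Without both libraries that stand apart, 2 were higher and 11 lower.

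Ndufa6 and Ndufs4, which were higher with LPS, had fold changes among the 3 lowest with statin under LPS; both contrasts use the ctl LPS libraries. Ndufa6 had 2159 and 2048 normalized counts in the statin LPS libraries against 3222 and 3160.0 in the ctl LPS libraries, with log2 fold change -0.60 (SE 0.11, adjusted p = 0.00170). Ndufs4 had 2054 and 1972 in statin LPS against 3021 and 2968 in ctl LPS, with -0.57 (SE 0.064, adjusted p = 9.22e-05). In both genes the statin LPS libraries lay below the ctl LPS libraries. With equal totals Ndufs4 was still lower (-0.23, adjusted p = 0.0105), and Ndufa6 stood at -0.26 (adjusted p = 0.0666). In the statin LPS libraries Ndufs4 took 2.57 and 2.48% of the members' reads and Ndufa6 2.70 and 2.58%, below their shares in ctl LPS given above. Both genes were named for their fold changes, so these shares are no separate support either.

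Higher under LPS with statin were Ndufa4, Ndufaf4 and Ndufs8. Ndufa4 had 4278 and 4366 normalized counts in the statin LPS libraries against 3041 and 2972 in the ctl LPS libraries, with log2 fold change 0.52 (SE 0.061, adjusted p = 1.19e-04). Ndufaf4 had 1484 and 1474 in statin LPS against 1169 and 1044 in ctl LPS, with 0.42 (SE 0.076, adjusted p = 0.00147). Ndufs8 had 3802 and 3817 in statin LPS against 3006 and 3089 in ctl LPS, with 0.32 (SE 0.080, adjusted p = 0.00752); without the first ctl LPS library, and without both libraries that stand apart, its call was lost (adjusted p = 0.0803 for the pair). Ndufa4 and Ndufaf4 kept their call and direction in every alternative run. Other core subunits gave -0.38 for Ndufs3 and -0.25 for Ndufv2, which passed the test, and -0.15, -0.13 and 0.06 for Ndufv1, Ndufs7 and Ndufs1, which did not. Equal totals turned Ndufv2 to 0.09, and it lost its call without any 1 of the 4 libraries compared. Ndufs3 stood at -0.04 with equal totals, past no threshold. In the matrix arm 4 of 9 accessory subunits fell, in the proximal membrane arm 3 of 8 and in the distal membrane arm 4 of 10. These shares are not far from the 32.9% of all genes that were lower. On the deposited scale 0 of 28 accessory subunits were higher and 11 lower (0 higher also by unadjusted p, edgeR and DESeq2), beside 31.4% and 32.9% of all genes. With equal totals 14 were higher and 1 lower, beside 52.9% and 17.7% of all genes, so the share that was higher was near that of all genes.

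**Figure D4:**
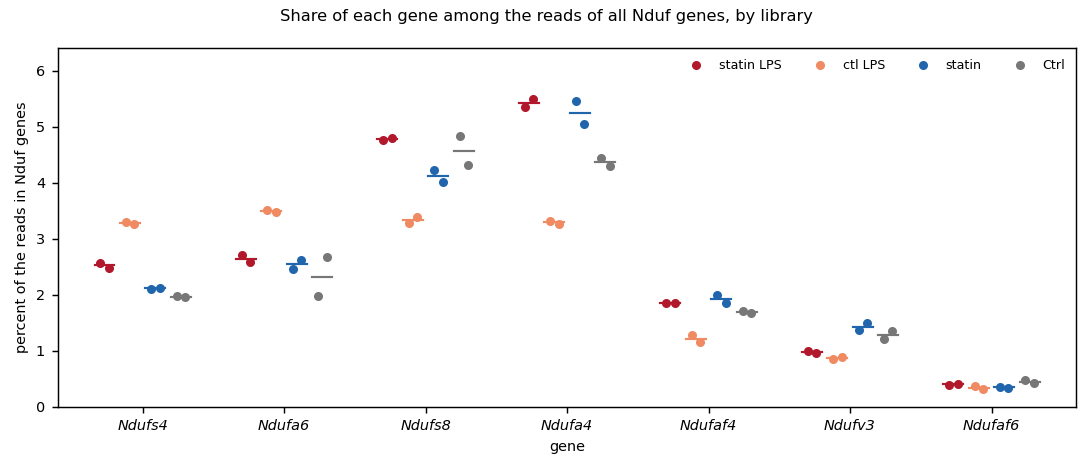
Share of 7 genes (x axis) among the reads of all 45 Nduf genes in each library (y axis, percent, from 0), which does not depend on scaling between libraries. Points are libraries and lines are means of 2 libraries. In ctl LPS, Ndufs4 and Ndufa6 take a larger share than in the other groups and Ndufs8, Ndufa4 and Ndufaf4 a smaller one. The genes shown were picked by their fold changes.

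In statin-treated cells, few members changed with LPS on the deposited scale. By limma 2 were higher and 8 lower in the statin LPS than in the statin libraries, against 29.2% higher and 29.0% lower of all genes. The members' median was -0.05, against -0.02 for all genes. With equal totals 0 were higher and 38 lower, with 0 higher by unadjusted p, beside 13.4% and 57.4% of all genes, and the median relative to the median gene was -0.03. Without both libraries that stand apart, 0 were higher and 2 lower, with DESeq2 1 and 5, and the count of lower members was 2 without the second statin LPS library, 3 without the second statin library, and 5 without the first statin LPS library or either ctl LPS library. Ndufv3 had 789 and 759.7 normalized counts in the statin LPS libraries against 1089 and 1252 in the statin libraries, with log2 fold change -0.59 (SE 0.086, adjusted p = 5.48e-04). Ndufaf7, a methyltransferase that acts during assembly, had 521 and 505 in statin LPS against 694 and 789.5 in statin, with -0.53 (SE 0.098, adjusted p = 0.00212). These 2 kept their call in every alternative run. Ndufb10, a subunit of the distal membrane arm, had 1635 and 1587 in statin LPS against 1889 and 1961 in statin, with -0.26 (SE 0.059, adjusted p = 0.00589), and lost its call without the second statin LPS library or without both libraries that stand apart. Ndufaf5, which hydroxylates Ndufs7, had 537 and 527 in statin LPS against 425 and 468 in statin, with 0.25 (SE 0.087, adjusted p = 0.0354). Ndufs4 had 2054 and 1972 against 1687 and 1783, with 0.21 (SE 0.064, adjusted p = 0.0205). Both were higher on the deposited scale only: with equal totals they stood at -0.11 and -0.15, and each lost its call without the first statin library or without either statin LPS library, as well as without both libraries that stand apart. Ndufaf5 also lost it with DESeq2, in the fit of only the 4 libraries compared, in the blocked fit and without either ctl LPS library. The core subunits had 1 call, Ndufv2, with -0.23 (SE 0.074, adjusted p = 0.0250), which was lost without the second statin library or either statin LPS library.

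The interaction is the log2 fold change of statin treatment with LPS minus that at rest. By limma 16 members had an interaction above 0 and 3 below 0, against 25.5% above and 30.1% below for all genes, with a median of 0.23 for the members and -0.03 for all genes. With equal totals 39 were above and 0 below (0 also by unadjusted p), beside 51.0% and 16.2% of all genes, and the median relative to the median gene was 0.27. Leaving out both libraries that stand apart left 7 above and 0 below. Without the first or second ctl LPS library, or the first statin LPS library, 8, 9 and 10 were above. The largest was Ndufs8, at 0.80 (SE 0.11, adjusted p = 4.80e-04): statin treatment went with 0.32 under LPS and -0.47 at rest. Ndufaf6 followed with 0.72 (SE 0.18, adjusted p = 0.00904), made of 0.04 under LPS and -0.69 at rest. Ndufa4 had 0.58 (SE 0.087, adjusted p = 6.27e-04), made of 0.52 under LPS and -0.06 at rest. These 3 kept their call in every alternative run. The 4 genes with the NRF1 letters had values of 0.55 (Ndufaf4), 0.51 (Ndufaf5), 0.32 (Ndufa8) and 0.32 (Ndufa11), all past the threshold. Their stretches were shown for these values, 33 of the 43 members lay above 0, and a link with the motif was not tested. Without both libraries that stand apart, the adjusted p was 0.0661 for Ndufa8 and 0.198 for Ndufa11. Of the 7 genes with the YY1 letters 3 passed the threshold above 0 and 1, Ndufs4, below 0. The median of the 7 was 0.11. Among those below 0 were Ndufa6 at -0.43 (SE 0.16, adjusted p = 0.0489) and Ndufs4 at -0.36 (SE 0.091, adjusted p = 0.01). Both turned with equal totals, to 0.03 and 0.10, neither past the threshold. With edgeR and with DESeq2 Ndufs4 kept its call, and without both libraries that stand apart neither gene kept it. Ndufa6 lost its call also without any 1 library but the second Ctrl, and Ndufs4 without the second statin LPS library.

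**Figure D5:**
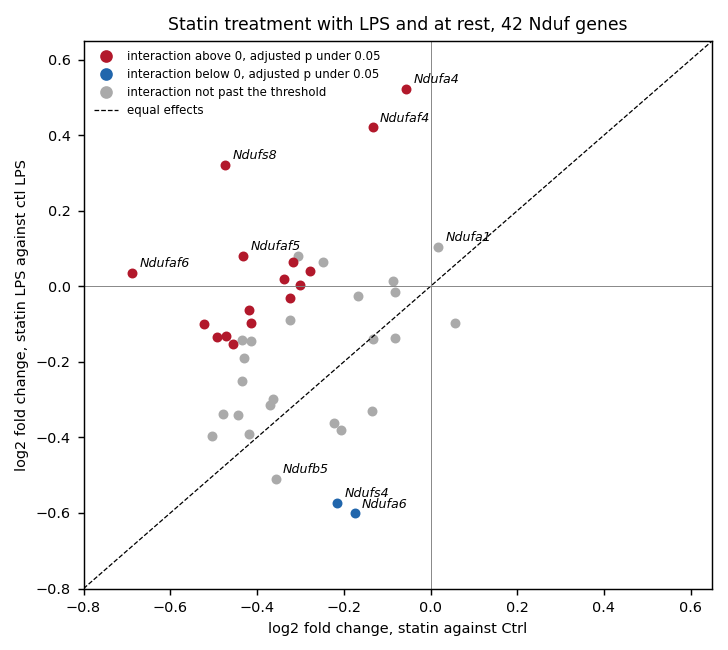
Log2 fold change of statin treatment with LPS (y axis, statin LPS against ctl LPS) and at rest (x axis, statin against Ctrl) for 42 Nduf genes, on the deposited scale. The dashed line marks equal effects. Red points, 16 genes, have an interaction above 0 and blue points, Ndufs4 and Ndufa6, one below 0, with adjusted p under 0.05.

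The other complexes of the chain, which take over electrons from complex I or use the gradient it builds, were counted beside it. With statin at rest, 4 of 4 genes of complex II (succinate dehydrogenase) were lower, 6 of 9 of complex III, 2 of 11 of complex IV and 14 of 16 of complex V (ATP synthase). The medians were -0.42, -0.32, -0.13 and -0.32, against -0.34 for the Nduf genes. In none of the 4 lists was a gene higher by limma, at an unadjusted p under 0.05, or by edgeR or DESeq2. Sdha, the flavoprotein of complex II, had 9111 and 9452 normalized counts in the statin libraries against 12741 and 13524 in the Ctrl libraries, with -0.50 (SE 0.057, adjusted p = 1.90e-04). Atp5o, the stalk subunit of ATP synthase, had 3450.2 and 3700.5 in statin against 6667 and 5715 in Ctrl, with -0.79 (SE 0.080, adjusted p = 1.03e-04). With equal totals the lower counts were 4, 8, 9 and 16, and without both libraries that stand apart 3, 6, 2 and 11. Over all genes 30.4% were higher and 25.7% lower on the deposited scale, and 23.5% and 34.6% with equal totals.

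With LPS, 0 genes were higher and 4 lower in complex II (0 higher also by unadjusted p, edgeR and DESeq2), 2 and 3 in complex III, 2 and 3 in complex IV, and 1 and 9 in complex V, in ctl LPS against Ctrl. Over all genes 39.9% were higher and 37.6% lower, so complexes III and IV held no larger share of lower genes than the table as a whole. Lower counts were 4, 2, 2 and 7 without both libraries that stand apart. Uqcr11, a small subunit of complex III, had 1406 and 1363 normalized counts in statin LPS, 936 and 875 in ctl LPS, 1728 and 1729 in statin and 2111 and 1841 in Ctrl, so the ctl LPS libraries were the lowest. Its log2 fold changes were -1.12 (SE 0.081, adjusted p = 2.60e-06) for ctl LPS against Ctrl and 0.61 (SE 0.081, adjusted p = 2.38e-04) for statin LPS against ctl LPS. Cox7a2l, a factor that joins complexes III and IV, had 10027 and 9605 in statin LPS, 14253 and 14593 in ctl LPS, 8268 and 9886 in statin and 7027 and 9824 in Ctrl, so the ctl LPS libraries were the highest. On the deposited scale it was higher in ctl LPS than in Ctrl with 0.80 (SE 0.15, adjusted p = 0.00103). With equal totals 0 genes of these 4 complexes were higher with LPS, at adjusted or unadjusted p, and 4, 9, 10 and 16 were lower. Of all genes 18.2% were then higher and 68.6% lower. In statin LPS against ctl LPS, 0 were higher and 3 lower in complex II (0 higher also by unadjusted p, edgeR and DESeq2), 1 and 4 in complex III, 1 and 4 in complex IV, and 3 and 9 in complex V, beside 31.4% and 32.9% of all genes. Equal totals turned these counts to 2, 5, 8 and 6 higher, beside 52.9% of all genes. In each, 0 were lower at adjusted or unadjusted p, beside 17.7% of all genes by adjusted p. The lower counts were 2, 2, 2 and 6 without both libraries that stand apart.

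Of 15 listed assembly factors of complex I that do not carry the Nduf name, 12 were tested. With statin at rest 0 were higher (limma, unadjusted p, edgeR and DESeq2) and 8 lower (4 without both libraries that stand apart), with a median of -0.29. Nubpl, which delivers iron-sulfur clusters to the complex, had 208 and 233 normalized counts in statin against 386 and 359 in Ctrl, with -0.76 (SE 0.12, adjusted p = 9.12e-04). Over all genes 30.4% were higher and 25.7% lower with statin at rest. With LPS 4 of these assembly factors were higher and 5 lower, near the 39.9% and 37.6% of all genes. With equal totals 0 were higher (0 also by unadjusted p) and 10 lower with LPS, beside 18.2% and 68.6% of all genes. Foxred1, an assembly factor of complex I, had 1383 and 1287 in statin LPS against 2936 and 2983 in ctl LPS, with -1.15 (SE 0.076, adjusted p = 4.20e-06). Ecsit, an assembly factor also known as a Toll-like receptor signalling adaptor, had 552 and 539 in statin LPS, 363 and 362 in ctl LPS, 695 and 743 in statin and 1095 and 885 in Ctrl, and its interaction was 1.04 (SE 0.16, adjusted p = 6.13e-04). The ctl LPS libraries were the lowest for Ecsit, as for Ndufs8, but the list as a whole was divided. Of the 12 tested, 3 were higher and 6 lower in statin LPS than in ctl LPS, beside 31.4% and 32.9% of all genes. The interaction passed the threshold above 0 in 3 and below 0 in 3, beside 25.5% and 30.1% of all genes. Its median in the list was -0.06.

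Among 11 tested regulators of respiratory gene expression, 1 was higher and 4 lower with statin at rest, and 6 higher and 4 lower with LPS. With equal totals these counts were 0 (0 also by unadjusted p) and 6, and 1 and 9. The all-gene shares with equal totals were 23.5% and 34.6% with statin at rest, and 18.2% and 68.6% with LPS. Gabpb1, a subunit of the ETS factor that activates respiratory genes, had 1824 and 1660.2 normalized counts in statin LPS, 2834 and 2853 in ctl LPS, 688 and 725 in statin and 1162 and 955 in Ctrl. It was highest in ctl LPS, with log2 fold change 1.43 (SE 0.100, adjusted p = 2.09e-06) against Ctrl. Tfb2m, which starts transcription of mitochondrial DNA, had 802 and 889 in statin LPS, 345 and 353 in ctl LPS, 979.6 and 993 in statin and 1045 and 941 in Ctrl. It was lowest in ctl LPS, with -1.50 (SE 0.088, adjusted p = 7.17e-07) against Ctrl, and statin LPS stood at 1.27 (SE 0.088, adjusted p = 5.78e-06) against ctl LPS. Tfb1m, another of these regulators, went the other way. It had 494 and 542 normalized counts in statin LPS, 1101 and 969 in ctl LPS and 679 and 620 in Ctrl. Its log2 fold change was -0.996 (SE 0.11, adjusted p = 8.75e-05, limma) for statin LPS against ctl LPS. In that contrast 4 of the 11 regulators were higher and 5 lower, beside 31.4% and 32.9% of all genes. With equal totals 5 were higher and 3 lower, beside 52.9% and 17.7%. Of 77 mitochondrial ribosomal proteins, which make the mitochondrially encoded subunits, 3 were higher and 45 lower with statin at rest (median -0.26), and 15 higher and 39 lower with LPS (median -0.25). Over all genes 30.4% and 25.7% were higher and lower with statin at rest, and 39.9% and 37.6% with LPS. Equal totals changed the counts of these proteins to 2 and 60, and 1 and 70, and leaving out both libraries that stand apart to 1 and 24, and 13 and 35.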

How the data were processed

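RNA sequencing libraries of RAW macrophages were analysed from the deposited table of normalized counts. This signal per gene is, by its values, the read count divided by a size factor that the authors applied to each library. The submitters' notes list the tools HTSeq 0.9.1, STAR 2.5.3 and DESeq2 1.18.1 and the build mm10, and the methods name other counting software, so which made the table is unsure. Further deposited sheets hold the authors' fold changes, p-values and ontology terms and were not used, nor were the values of 12 further columns, which lie outside the 8 columns analysed. In each library all normalized counts were whole multiples of 1 value (0.781 to 1.33) to within 0.01 reads, which gave back the reads.

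The 11647 genes whose normalized counts averaged 10 or more were fitted with limma 3.58.1 (R 4.3.3) on log2(value + 1), with all 8 libraries in 1 model, a mean for each group and eBayes with a trend. The pseudocount of 1 understates changes of low genes. P-values are two-sided and adjusted by Benjamini-Hochberg over all genes within each contrast; 0.05 was the threshold. The fit was tested on simulated data. Alternatives were a pseudocount of 5, no filter, a minimum of 50, equal totals, edgeR 4.0.16 (quasi-likelihood) and DESeq2 1.42.0 on the recovered reads, only the libraries compared, a replicate block, both unusual libraries left out, and each library left out in turn. Places and lengths come from GENCODE M21 (mm10), where all 45 members matched, and promoters from RefSeq. Of the 24421 entries, 27 show a date where a symbol should be. The core subunits and, per contrast, up to 3 members with the highest and lowest fold changes among those past the threshold were named with values, and up to 2 genes of each other list and contrast. Some items are counted but not reported here by name. Members and lists were chosen with earlier results of these data known.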

Additional observations from a re-analysis of the deposited data

Results flagged for a closer look

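For 18 members named here the effect of statin treatment under LPS differed from that at rest by limma's test of the interaction, on the deposited scale. The interaction, in log2 units, was 0.80 for Ndufs8, 0.72 for Ndufaf6, 0.58 for Ndufa4, 0.55 for Ndufaf4, 0.51 for Ndufaf5, 0.42 for Ndufa5, 0.38 for Ndufs1, 0.36 for Ndufb10, 0.36 for Ndufs6, 0.36 for Ndufb7, 0.34 for Ndufs7, 0.32 for Ndufa8, 0.32 for Ndufa11, 0.30 for Ndufc1, 0.30 for Ndufab1, 0.29 for Ndufb3. It was -0.43 for Ndufa6, -0.36 for Ndufs4. Of these, 7 were above 0 by the test without both libraries that stand apart, and 0 below. Groups hold 2 libraries each, so no library could be set against the others of its group.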

How the results depend on the processing

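With equal totals the members' median log2 fold change was -0.45 for statin against Ctrl, 0.21 for statin LPS against ctl LPS, -1.08 for ctl LPS against Ctrl, -0.41 for statin LPS against statin and 0.69 for the interaction. Higher and lower members were 25 and 2 for statin LPS against ctl LPS, 0 and 43 for ctl LPS against Ctrl, 0 and 38 for statin LPS against statin, and 39 and 0 for the interaction. Single values that turned were Ndufv2 (0.092) for statin LPS against ctl LPS, Ndufa6 (-0.38) and Ndufs4 (-0.25) for ctl LPS against Ctrl, Ndufs4 (-0.15) and Ndufaf5 (-0.11) for statin LPS against statin, and Ndufa6 (0.0316) and Ndufs4 (0.10) for the interaction. For statin LPS against statin, DESeq2 gave 1 higher and 5 lower, and leaving out both libraries that stand apart gave 0 and 2. For the interaction, that left 7 above and 0 below; below 0 were 1 with no filter, 1 with edgeR and 1 with DESeq2. The cause was not tested.

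Leaving out 1 library at a time, the medians ranged from -0.39 to -0.31, -0.13 to -0.11, -0.34 to -0.26, -0.07 to -0.03 and 0.16 to 0.29 in the order of contrasts above. Higher members ranged from 0 to 0, 2 to 3, 3 to 4, 0 to 4 and 8 to 21, and lower members from 27 to 32, 12 to 17, 21 to 25, 2 to 12 and 0 to 3. Arms left with 1 library were assumed to vary like the other groups. With a replicate block, statin LPS against statin had 1 member higher, and the interaction 15 above and 2 below. The numbers do not pair the samples: correlations of the difference between replicates 1 and 2 were -0.07 to 0.10 between groups. Of 622 alternative values of 37 single results, 562 kept direction and call, 53 lost the call and 7 turned. The interaction was not fitted on only the libraries of the contrast, since it uses all. The 2 libraries of a group differed over all genes tested with a robust SD (log2) of 0.0820 in statin LPS, 0.0687 in ctl LPS, 0.156 in statin and 0.224 in Ctrl. Ndufa4l2, under the count minimum, was not tested.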

Other observations

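AA467197 (also called Nmes1), a relative of Ndufa4 by sequence that is known to take its place in complex IV and whose transcript carries miR-147, was looked up after the values of Ndufa4 had been seen. It had 107 and 90.3 normalized counts in the statin LPS libraries, 538 and 592 in the ctl LPS libraries, 3.58 and 0.940 in the statin libraries and 0 and 0 in the Ctrl libraries. It was highest in ctl LPS, the group in which Ndufa4 was lowest, at 3041 and 2972. Its log2 fold change for statin LPS against ctl LPS was -2.51 (SE 0.42, adjusted p = 9.80e-04, limma). No link between the 2 genes was tested.

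Wdr4, 135 bases from Ndufv3 on the other strand, had log2 fold changes of 0.81 in statin LPS against ctl LPS and -1.11 in ctl LPS against Ctrl, where Ndufv3 had -0.03 and -0.73. Phf14, 312 bases from Ndufa4 on the other strand, had -0.00385 in statin LPS against ctl LPS and -0.77 in ctl LPS against Ctrl, where Ndufa4 had 0.52 and -0.57. These 2 neighbours were chosen after their values were seen.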
